A study of Mus musculus with 44 samples.

Results

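The comparison described here set livers of wild-type (WT) mice that ate low-fat food lacking choline (CD-LFD) against livers of WT mice on normal chow. Its members were the 6 WT CD-LFD and the 6 WT control libraries, chosen by their labels, which made 12 of the 44 libraries of the series. All mice entered the experiment at 2 months of age and stayed on their diet for 6 months. The control group carried no mutation and received chow only, and the CD-LFD group differed from it in diet alone. Since the control was chow rather than a choline-supplemented version of the same purified food, the lack of choline and the other differences between these diets cannot be told apart. The remaining 32 libraries came from WT mice on the high-fat form of that food (CD-HFD) and from Ripk3 and Mlkl knockout mice (Ripk3KO, MlklKO), which lack the kinase or the membrane-disrupting effector of necroptosis, a lytic form of programmed cell death. The study as a whole asked what this form of death contributes to liver inflammation and liver cancer under such diets. Nothing in the labels says in words that each library came from a separate animal, so the p-values measure the spread between these libraries.

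Choline is needed to make phosphatidylcholine, the main phospholipid of the shell of very-low-density lipoprotein (VLDL) particles, which carry triglyceride out of the liver. It is also oxidised to betaine, which hands a methyl group to homocysteine and so feeds the methionine cycle and, through S-adenosylmethionine, a second route to phosphatidylcholine run by the methyltransferase PEMT. Rodents on choline-deficient food are a classical model of fatty liver with hepatocyte injury, inflammation, scarring and, over long periods, liver tumours.

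Before the comparison, 3 features of the libraries have to be stated. Replicate 3 of CD-LFD held 88204703 counts, 15.4 times the median of the other 11 libraries, which held 2476268 to 8087208. Control replicates 5 and 6 stood apart from the other 4 controls. On the second principal component of the 12 libraries they lay at -89.4 and -73.2, whereas the other 10 libraries lay between 4.13 and 38.4, and on the first component control 6, at 24.9, lay inside the CD-LFD range of 1.28 to 76.4. Predicted genes (symbols made of Gm and a number) took 0.557% and 0.757% of the counts in these controls against 0.321% to 0.367% in controls 1 to 4. The same replicate numbers were the highest on CD-LFD, at 0.656% and 0.670% against 0.382% to 0.495% in CD-LFD 1 to 4. Conjugating (phase II) enzymes also had their lowest mean log2 levels in replicates 5 and 6 of both diets, at -0.55 and -0.84 in controls and -0.58 and -0.72 on CD-LFD relative to the control mean, against -0.01 or more in every other library. The labels give no reason for this shared split. Mitochondrially encoded transcripts had their highest mean log2 levels in controls 5 and 6, at 0.77 and 1.34 relative to the control mean. Their lowest level was in control 4, at -1.58, and CD-LFD libraries lay between -0.18 and 0.47. The third feature was clock phase. The log2 ratio of Arntl to Dbp, 2 clock genes that peak at opposite times of day, put controls 2 and 4 at -5.79 and -7.88 and the other 10 libraries between -2.66 and 2.69. Counts without controls 5 and 6, or without controls 2 and 4, are given for the lists and genes where they are named below.

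**Figure D1:**
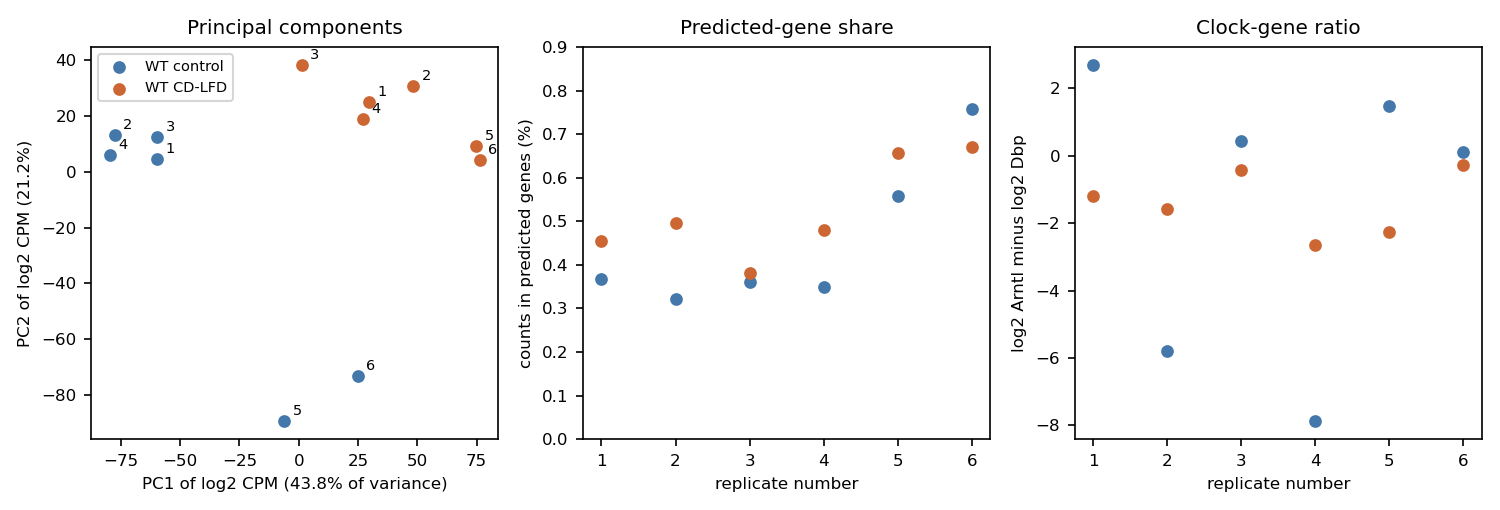
The left panel plots the 12 libraries on the first and second principal components of log2 CPM, numbered by replicate; the middle panel plots the percentage of counts in predicted genes and the right panel the log2 difference between Arntl and Dbp, both against the replicate number. Controls 5 and 6 lie at -89.4 and -73.2 on the second component, and controls 2 and 4 have the lowest Arntl to Dbp values.

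The tissue label was checked on the defining transcripts of hepatocytes, which were present in every library. Albumin (Alb) was measured at 85298 CPM (51799 to 118422) in controls and 60758 CPM (40352 to 81341) on CD-LFD, where CPM is the count scaled to library size with the trimmed mean of M values (TMM). Each level is the median over the 6 libraries, with the lowest and the highest in brackets. The summed level of 12 hepatocyte markers ran from 103103 to 189491 CPM in controls and from 80022 to 144098 CPM on CD-LFD, with 4 of them called lower (7 without control 6), or 2 lower and 2 higher when libraries were scaled by total counts alone. Of the pancreatic markers 1 of 10 passed the count filter, the elastase Cela1, and it fell (log2 change -1.02 ± 0.21, adjusted p = 0.000341). All 12 libraries held the Y-linked transcript Ddx3y at 42.8 to 83.0 CPM and Xist, of the inactive X, at no more than 1.96 CPM. In bulk tissue fewer cells of a type and less RNA per cell cannot be told apart, which holds for every result below.

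A gene was called when its Benjamini-Hochberg adjusted p in edgeR's quasi-likelihood test was under 0.05. Of 14862 genes tested, 4117 were called (27.7%), 2040 of them higher (13.7%) and 2077 lower (14.0%) on CD-LFD. At 2-fold or more, rises were commoner, with 1352 genes (9.1%) against 572 falls (3.85%). The count filter used all 9 groups, so genes nearly absent from controls could pass through other groups. Fold changes of such genes are less certain. In 749 genes (5.04%) every CD-LFD library lay above every control library, and in 383 (2.58%) every one lay below. With scaling by total counts alone the median change of all genes moved from -0.03 to 0.27 on the log2 scale, and the split became 4142 higher and 737 lower, so every direction below is relative to the TMM scale. The fit to the 12 libraries alone called 1814 of 11986 genes, and 1782 of these were among the calls of the full fit in the same direction. Leaving out controls 5 and 6 raised the calls to 6381, and leaving out controls 2 and 4 lowered them to 2691. In none of these 3 fits was a gene called in the opposite direction. With controls 5 and 6 and CD-LFD 5 and 6 all left out, 4196 genes were called, 2167 higher and 2029 lower.

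Among called genes whose groups did not overlap and whose log2 CPM averaged 1 or more, the 12 largest rises included a steroid-conjugating enzyme, genes of lipid-laden macrophages and a stress-induced hormone. Sult1e1, the estrogen sulfotransferase, was measured at 0.297 CPM (0 to 0.733) in controls and 117 CPM (68.8 to 248) on CD-LFD, and its change was the largest of the 12 (log2 change 8.83 ± 0.72, adjusted p = 2.09e-12). Gpnmb, a lysosomal membrane glycoprotein abundant in lipid-laden macrophages, went from 0.415 CPM (0 to 1.83) to 44.5 CPM (21.9 to 75.1), a log2 change of 6.84 ± 0.47 (adjusted p = 1.79e-14). Mmp12, the macrophage elastase, stood at 0.138 CPM (0 to 0.733) in controls and 17.9 CPM (11.4 to 20.9) on CD-LFD, a log2 change of 6.16 ± 0.43 (adjusted p = 3.02e-14). Fgf21, a hepatocyte hormone released under metabolic and amino acid stress, was at 1.01 CPM (0 to 2.69) in controls and at 76.5 CPM (59.1 to 203) on CD-LFD, a log2 change of 6.20 ± 0.51 (adjusted p = 3.28e-12). No library of one group reached the range of the other in any of these genes, which the rule for naming them required, and CD-LFD replicate 5 held the highest Fgf21 value.

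The other 8 of the 12 largest rises spanned immune, repair and P450 genes. Ly6d, a small surface protein of the Ly6 family, reached 65.1 CPM (24.6 to 119) against 0.377 CPM (0.244 to 1.96), a log2 change of 6.77 ± 0.66 (adjusted p = 3.18e-10). Ubd, the ubiquitin-like protein FAT10 that inflammatory cytokines induce, reached 28.3 CPM (14.9 to 49.4), a log2 change of 6.09 ± 0.52 (adjusted p = 5.56e-12). Lcn2, the siderophore-binding lipocalin, reached 81.1 CPM (44.6 to 106) from 1.93 CPM (0.456 to 6.60), a log2 change of 4.96 ± 0.84 (adjusted p = 2.37e-05). The adaptor Stap1 rose by 6.25 ± 0.36 (SE) on the log2 scale, and the recombination gene Rad51b by 5.01 ± 0.36. Fam83a rose by 5.08, and the cytochromes P450 Cyp2b9 and Cyp2d12 by 6.29 and 5.42. Control counts behind these rises were few, from 6 (Mmp12) to 66 (Lcn2) over all 6 libraries, so that the fitted sizes are less certain than the separation of the groups.

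**Figure D2:**
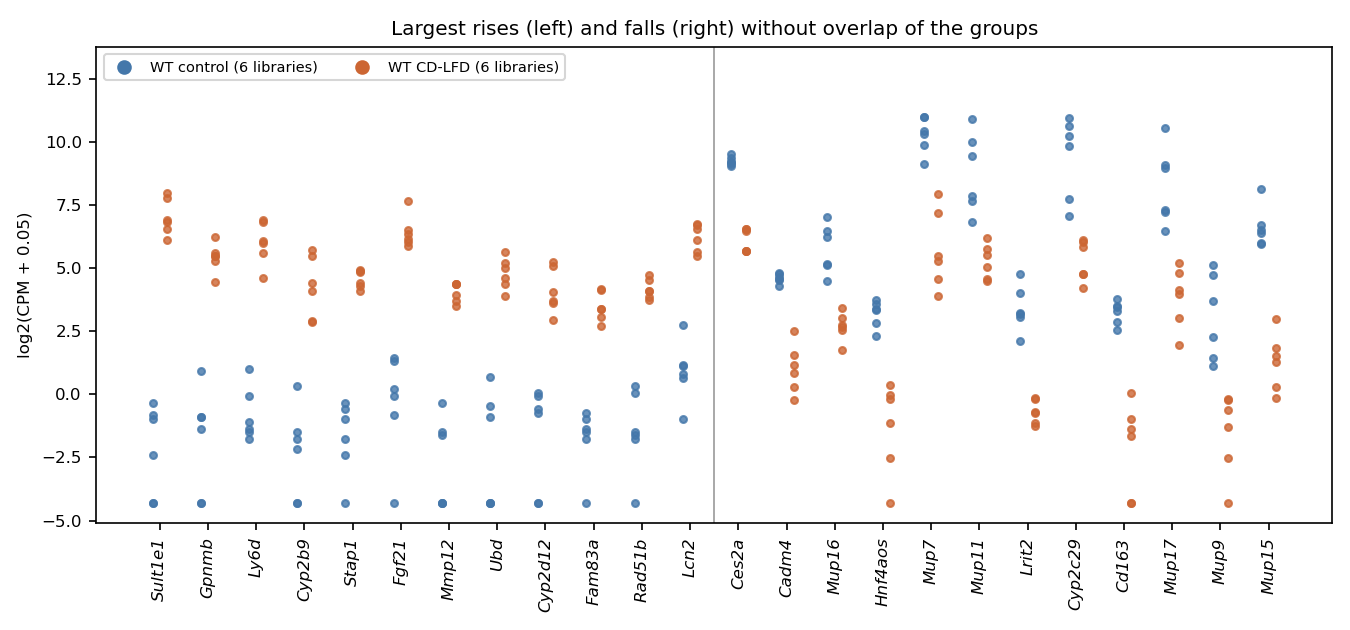
Each point is 1 library, with log2(CPM + 0.05) on the vertical axis and the 12 genes with the largest rises on the left and the 12 with the largest falls on the right of the line; 6 WT control and 6 WT CD-LFD libraries are shown per gene, and the lowest points are libraries with no count. In all 24 genes the groups do not overlap, as the rule for choosing them required.

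Under the same limits the largest falls lay among the major urinary proteins (Mups), lipocalins that mouse liver secretes in quantity, and in enzymes of drug and ester metabolism. Mup15 went from 86.9 CPM (61.6 to 283) to 2.58 CPM (0.866 to 7.81), a log2 change of -5.18 ± 0.61 (adjusted p = 2.74e-08). Mup7 went from 1308 CPM (559.9 to 2029) to 41.5 CPM (14.7 to 246), a log2 change of -3.97 ± 0.63 (adjusted p = 7.90e-06). Mup9, Mup11, Mup16 and Mup17 fell by 4.78, 4.06, 3.22 and 4.75 on the log2 scale. These genes are near-identical copies, so the split of reads among them is uncertain. Cyp2c29, a drug-metabolising P450, fell from 1059.6 CPM (134 to 1950.4) to 42.1 CPM (18.5 to 69.1), a log2 change of -4.49 ± 0.48 (adjusted p = 2.27e-09). Its 2 lowest control values were those of controls 5 and 6. Ces2a, an intestinal-type carboxylesterase also made in liver, was tight in both groups, at 588 CPM (521 to 738) and 69.7 CPM (51.0 to 93.0), a log2 change of -3.09 ± 0.18 (adjusted p = 1.11e-16). Cd163, the haemoglobin scavenger receptor of resident macrophages, went from 10.4 CPM (5.87 to 13.5) to 0.300 CPM (0 to 0.977), a log2 change of -4.63 ± 0.57 (adjusted p = 6.35e-08). The adhesion molecule Cadm4 (-3.12), the leucine-rich repeat gene Lrit2 (-4.22) and Hnf4aos (-3.79) completed the list. Hnf4aos lies antisense to Hnf4a, and since the strand setting of the counting is not given in the sources used here, its reads cannot be told from those of its partner.

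All 24 genes were called, in the same direction, in each of 25 alternative fits, including those without controls 5 and 6 and without the deep CD-LFD library, and the highest adjusted p among them was 0.00159. Every gene group described next is read against the shares over all genes, 13.7% higher and 14.0% lower.

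**Figure D3:**
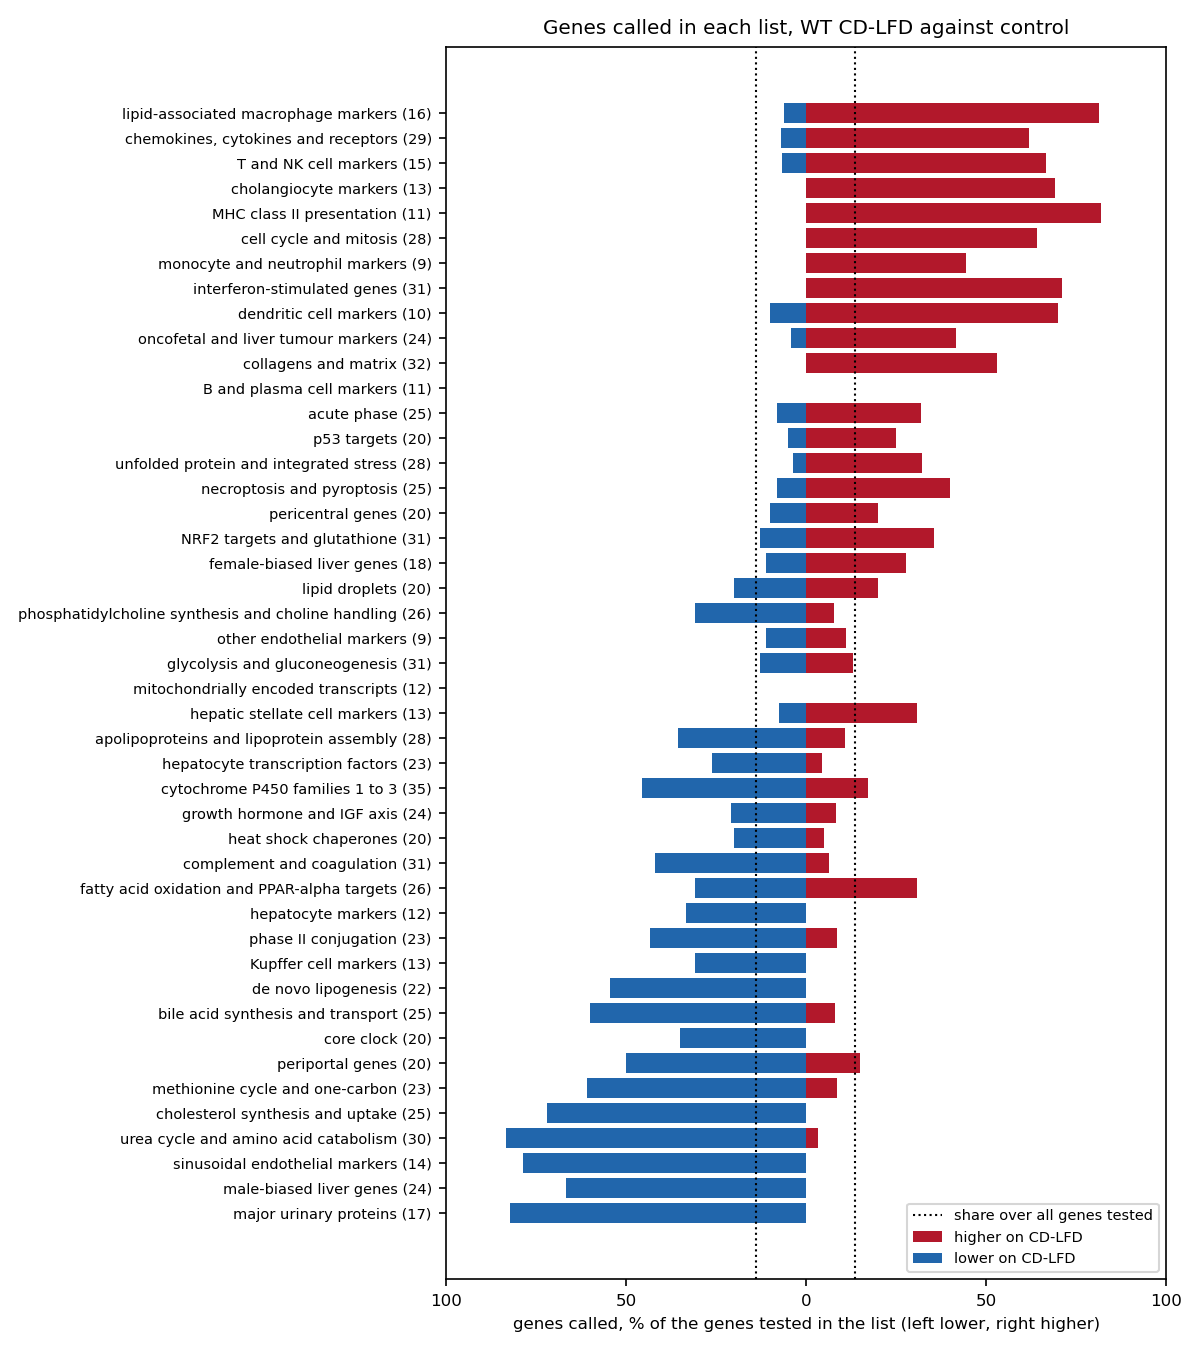
Bars give the percentage of the tested genes of each list that were called higher (right) or lower (left) on CD-LFD, with the number tested in brackets and lists ordered by their median change; dotted lines mark the shares over all genes, 13.7% higher and 14.0% lower. Macrophage, T-cell, cholangiocyte and MHC class II lists lie at the top and major urinary protein, male-biased and sinusoidal endothelial lists at the bottom.

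Genes that handle choline and phosphatidylcholine showed a mixed picture. Of 26 genes 2 were higher and 8 lower, with a median of -0.12 on the log2 scale against -0.03 over all genes. The counts were 6 higher and 5 lower (median 0.18) with scaling by total counts, 5 and 10 without controls 5 and 6, 2 and 3 without controls 2 and 4, and 1 and 4 of 24 in the 12-library fit. Pemt, the methyltransferase that makes phosphatidylcholine from phosphatidylethanolamine, was measured at 289 CPM (220.4 to 397) in controls and 296 CPM (210.3 to 381) on CD-LFD, and the groups overlapped almost completely (log2 change -0.03 ± 0.15, adjusted p = 0.911). Chka, the choline kinase that opens the other route, was at 128 CPM (30.8 to 304) and 145 CPM (84.3 to 367), a log2 change of 0.20 ± 0.38 (adjusted p = 0.733). Chdh, which oxidises choline towards betaine, was at 161 CPM (70.7 to 258) and 156 CPM (106 to 212), a log2 change of -0.09 ± 0.19 (adjusted p = 0.748). Neither passed the test. Pcyt1a, the rate-limiting enzyme of that other route, had 94.4 CPM (11.9 to 120.5) in controls and 31.0 CPM (11.2 to 61.1) on CD-LFD, a log2 change of -1.25 ± 0.38 (adjusted p = 0.0117). Here the control libraries split, since controls 5 and 6 stood at 11.9 and 15.2 CPM, inside the CD-LFD range, and the other 4 at 85.5 to 120.5 CPM. The call was lost in the fit to the 12 libraries alone (adjusted p = 0.131) and without controls 2 and 4 (0.15), and was kept without controls 5 and 6 (4.10e-05). Abcb4, the canalicular pump that secretes phosphatidylcholine into bile, rose without overlap, from 243 CPM (209.6 to 315) to 402 CPM (374 to 490.0), a log2 change of 0.71 ± 0.13 (adjusted p = 9.81e-05). The lower count of this list went from 8 to 5 without control 2, and the higher count from 2 to 4 without control 5 or without CD-LFD 3.

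The methionine cycle, which the betaine made from choline supplies, fell in most of its members. Of 23 genes of methionine and one-carbon metabolism 14 were lower and 2 higher (median -0.67), with 11 and 2 in the fit to the 12 libraries alone and 16 and 3 without controls 5 and 6. Gnmt, which uses surplus S-adenosylmethionine to methylate glycine, went from 2082 CPM (541 to 2293) to 464 CPM (217 to 757), a log2 change of -1.81 ± 0.29 (adjusted p = 9.91e-06). Ahcy, which removes the S-adenosylhomocysteine produced, went from 1922 CPM (663 to 2515) to 595 CPM (332 to 799.6), a log2 change of -1.55 ± 0.24 (adjusted p = 5.52e-06). Pipox, which oxidises sarcosine and pipecolate, fell without overlap, from 319.9 CPM (311 to 338) to 110.0 CPM (81.2 to 144), a log2 change of -1.52 ± 0.17 (adjusted p = 3.77e-09). The synthetase of adult liver, Mat1a, fell by 0.76 ± 0.18 on the log2 scale (adjusted p = 0.00135), and the transsulfuration enzyme Cth by 0.89 ± 0.18 (0.000358). In contrast Mat2a, the synthetase form of other tissues and of growing liver, rose from 92.4 CPM (66.5 to 102) to 162 CPM (106 to 236), a log2 change of 0.91 ± 0.18 (adjusted p = 0.000263). The mitochondrial folate enzyme Mthfd2 went from 2.20 CPM (0.922 to 6.85) to 11 CPM (7.22 to 15), a log2 change of 2.05 ± 0.36 (adjusted p = 4.04e-05). Bhmt, which transfers the methyl group of betaine, was among the genes that did not pass, at 2396 CPM (1980.3 to 3761) and 2649.9 CPM (1967 to 3613), a log2 change of 0.08 ± 0.22 (adjusted p = 0.824).

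Enzymes of nitrogen disposal fell in most members as well. Of 30 genes of the urea cycle and amino acid breakdown 25 were lower and 1 higher (median -0.90), with 18 and 1 in the 12-library fit and 26 and 1 without controls 5 and 6. Cps1, the mitochondrial entry enzyme of the urea cycle, had 4123 CPM (852 to 5339) in controls and 942 CPM (485 to 2398) on CD-LFD, a log2 change of -1.61 ± 0.39 (adjusted p = 0.00172). Controls 5 and 6, at 854 and 852 CPM, lay inside the CD-LFD range. Asl, a later enzyme of the cycle, separated the groups fully, at 703 CPM (621 to 1147) in controls and 289.6 CPM (270.0 to 421) on CD-LFD, a log2 change of -1.35 ± 0.21 (adjusted p = 8.21e-06). Hal, the first enzyme of histidine breakdown, fell by 1.65 ± 0.30 on the log2 scale (adjusted p = 5.36e-05), the glutaminase Gls2 by 1.30 ± 0.18 (1.09e-06) and the tyrosine aminotransferase Tat by 1.08 ± 0.27 (0.00279). The single gene that rose was Glul, glutamine synthetase of the hepatocytes around the central vein, from 922 CPM (519 to 1227) to 1865 CPM (1581 to 2243), a log2 change of 1.04 ± 0.17 (adjusted p = 1.57e-05). Glul was higher in every CD-LFD library than in any control.

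**Figure D4:**
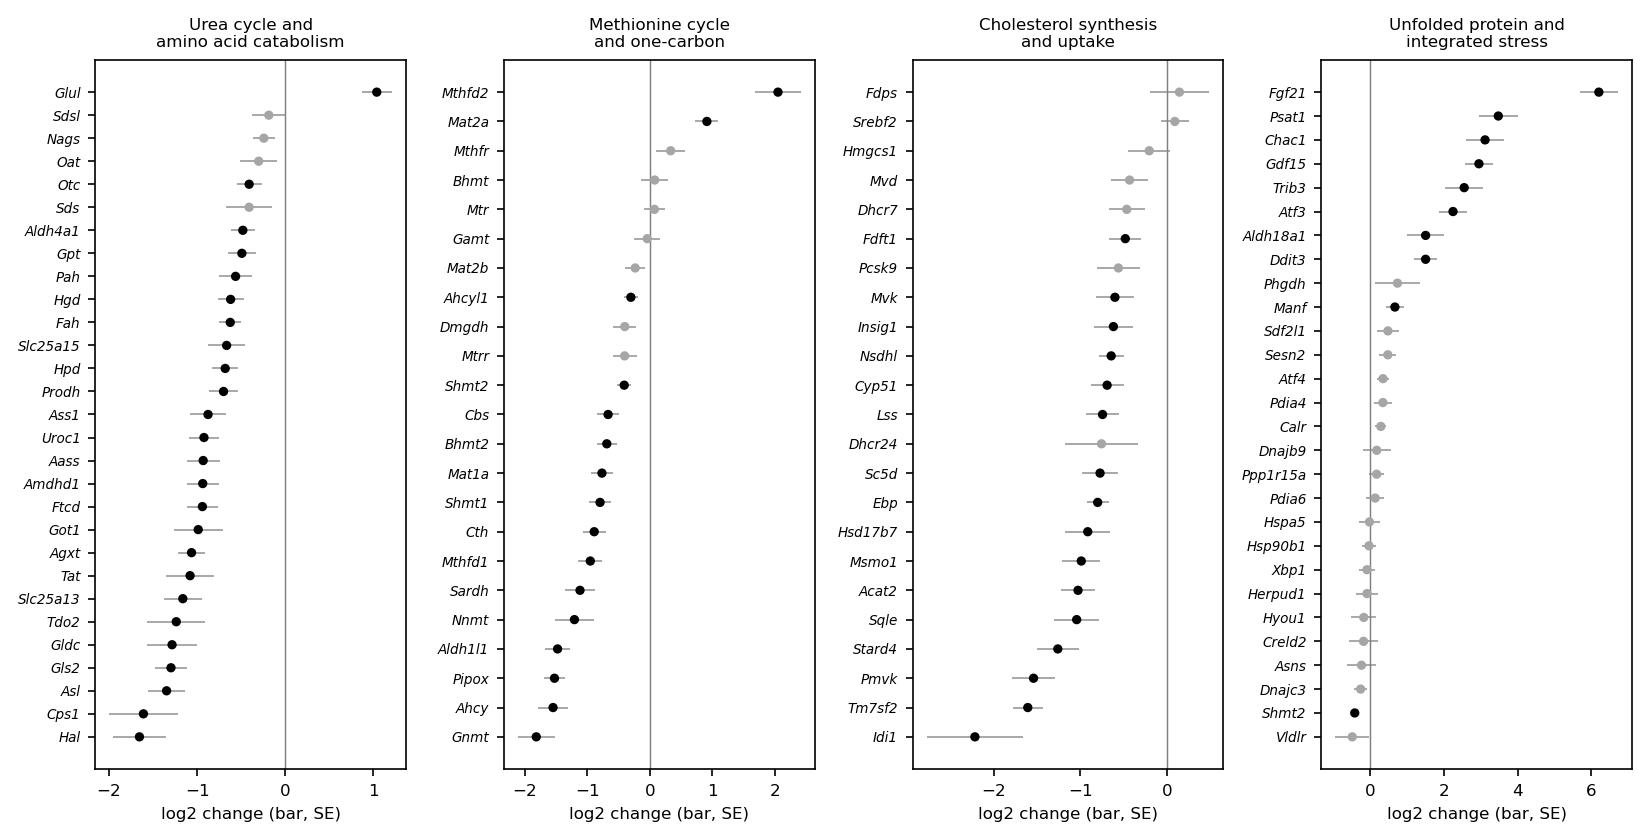
Each point is the log2 change of 1 gene on CD-LFD against control with its SE, black where the adjusted p was under 0.05 and grey otherwise, for tested genes of 4 lists. Glul, Mat2a and Mthfd2 are the called rises of the first 2 panels, no gene of the third panel is a called rise, and Fgf21 lies furthest right in the fourth.

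The position of hepatocytes along the liver lobule sets which of these enzymes they make. Of 20 periportal genes, those of hepatocytes near the portal inflow, 10 were lower and 3 higher (median -0.62), and the falls included Hal, Cps1 and Gls2. Of 20 pericentral genes 4 were higher and 2 lower (median 0.24), which is near the shares over all genes. The rises included the ammonium transporter Rhbg. It was at 1.19 CPM (0.341 to 2.44) in controls and 6.07 CPM (4.34 to 9.35) on CD-LFD, a log2 change of 2.35 ± 0.29 (adjusted p = 6.10e-08). The secreted chemotactic factor Lect2 was at 86.3 CPM (68.4 to 138) and 264 CPM (186 to 292), a log2 change of 1.49 ± 0.15 (adjusted p = 1.08e-09). Cyp2e1, the ethanol-inducible pericentral P450, did not pass (log2 change -0.09 ± 0.23, adjusted p = 0.799). With scaling by total counts 10 pericentral genes were higher and 1 lower. No test compared the 2 lists with each other. The periportal rises went from 3 to 1 without CD-LFD 4, and the pericentral falls from 2 to 1 without control 1, CD-LFD 1 or CD-LFD 2.

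Genes of sterol synthesis fell in most members. Of 25 genes of cholesterol synthesis and uptake 18 were lower and the other 7 were not called (median -0.76), with 12 lower in the 12-library fit and 21 without controls 5 and 6. The sterol reductase Tm7sf2 went from 201 CPM (114 to 255) to 61.8 CPM (36.0 to 85.0), a log2 change of -1.61 ± 0.18 (adjusted p = 4.40e-09). Its groups did not overlap. For Idi1, the isomerase with the largest fall (log2 change -2.22 ± 0.56, adjusted p = 0.00262), controls 5 and 6 at 7.76 and 6.11 CPM lay among the CD-LFD values of 2.80 to 33.6 CPM, while controls 1 to 4 held 71.1 to 106 CPM.

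Fatty acid synthesis fell less evenly. Of 22 lipogenic genes 12 were lower and the others not called (median -0.59), but 5 were lower in the 12-library fit, 4 lower and 2 higher without controls 2 and 4, 13 lower and 1 higher without controls 5 and 6, 7 lower without control 2 or without CD-LFD 5, and 7 lower and 2 higher with scaling by total counts. The desaturase Scd1 was at 10068 CPM (3245 to 18667) in controls and 3077 CPM (928 to 6236) on CD-LFD, a log2 change of -1.68 ± 0.44 (adjusted p = 0.004). Without controls 2 and 4 its adjusted p was 0.106. The elongase Elovl3 was at 422 CPM (78.7 to 658) and 78.1 CPM (30.9 to 130.1), a log2 change of -2.27 ± 0.47 (adjusted p = 0.000368). Fasn, the fatty acid synthase, did not pass, at 1476 CPM (757 to 2102) and 876 CPM (513 to 3146), a log2 change of -0.28 ± 0.31 (adjusted p = 0.541). Its highest value of all 12 libraries was in CD-LFD replicate 1.

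Genes of fatty acid oxidation and targets of the lipid-sensing receptor PPAR-alpha split, with 8 of 26 higher and 8 lower (median -0.45). The split was 10 higher and 3 lower with scaling by total counts, 7 and 3 in the 12-library fit, and 6 and 13 without controls 5 and 6, and the falls numbered 4 or 5 without control 1, 2 or 4 or CD-LFD 5 or 6. Cyp4a14, a fatty acid omega-hydroxylase, was at 17.0 CPM (6.90 to 21.3) in controls and 95.3 CPM (52.2 to 310.0) on CD-LFD, a log2 change of 2.95 ± 0.77 (adjusted p = 0.00347). Cd36, the fatty acid uptake receptor, was at 27.9 CPM (14.6 to 45.2) and 97.6 CPM (73.6 to 119), a log2 change of 1.76 ± 0.26 (adjusted p = 1.75e-06). In 7 genes of the list, these 2 included, all CD-LFD libraries lay above all controls. The cytosolic thioesterase Acot1 was the largest fall, from 22.0 CPM (2.44 to 39.0) to 2.73 CPM (0.618 to 4.99), a log2 change of -2.71 ± 0.54 (adjusted p = 0.000208). Ppara itself fell by 0.93 ± 0.26 (adjusted p = 0.00708; 0.288 without controls 2 and 4). Cpt1a, which admits fatty acids to mitochondria, did not pass (log2 change -0.48 ± 0.23, adjusted p = 0.116).

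Lipid droplet genes were called in 8 of 20, 4 each way (median -0.03). These shares lay near those over all genes, 13.7% higher and 14.0% lower, so single genes are described rather than a shift of the list. The counts became 6 higher with the 4 falls no longer called when libraries were scaled by total counts. Plin4 rose from 12.8 CPM (6.13 to 27.6) to 66.5 CPM (40.04 to 86.9), a log2 change of 2.16 ± 0.39 (adjusted p = 4.86e-05). Cidec, which enlarges droplets by lipid transfer, rose from 7.78 CPM (3.20 to 15.6) to 29.7 CPM (16.5 to 53.6), a log2 change of 1.84 ± 0.39 (adjusted p = 0.000431). Plin2, the most abundant coat protein of hepatocyte droplets, did not pass, at 342 CPM (169.6 to 519) and 468 CPM (174 to 589), a log2 change of 0.21 ± 0.29 (adjusted p = 0.625). The 4 falls dropped to none without control 2 and to 1 without control 4, CD-LFD 5 or CD-LFD 6.

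Lipoprotein genes were lower in 10 of 28 and higher in 3 (median -0.30), or 4 and 3 with scaling by total counts, and 6 were lower without control 1 or 3 or CD-LFD 2, 5 or 6. Mttp, which loads triglyceride onto nascent VLDL, went from 347 CPM (90.7 to 427) to 147 CPM (78.6 to 222), a log2 change of -0.99 ± 0.25 (adjusted p = 0.0028). Its adjusted p was 0.0751 in the 12-library fit and 0.0679 without controls 2 and 4. Apob, the structural protein of the particle, did not pass (log2 change -0.62 ± 0.27, adjusted p = 0.0829). Pltp, the phospholipid transfer protein of plasma, fell without overlap, from 84.8 CPM (43.8 to 158) to 23.5 CPM (11.6 to 32.4), a log2 change of -2.10 ± 0.40 (adjusted p = 0.000111). Apoa4 and Lpl rose in every CD-LFD library. Apoa4, an apolipoprotein that fatty liver is known to produce, went from 41.7 CPM (30.4 to 84.2) to 270.0 CPM (217 to 422), a log2 change of 2.60 ± 0.29 (adjusted p = 1.00e-08). The lipoprotein lipase Lpl, which liver macrophages also make, went from 32.6 CPM (19.3 to 45.2) to 158 CPM (82.9 to 179), a log2 change of 2.17 ± 0.25 (adjusted p = 1.00e-08).

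Bile acid genes were lower in 15 of 25 and higher in 2 (median -0.59), with 8 lower and 2 higher with scaling by total counts, and 13 lower and none higher without controls 5 and 6 and CD-LFD 5 and 6. Cyp7b1 and Cyp27a1, enzymes of the alternative pathway from cholesterol to bile acids, separated the groups. Cyp7b1 was at 255 CPM (142 to 454) and 89.1 CPM (41.5 to 140.3), a log2 change of -1.68 ± 0.29 (adjusted p = 3.61e-05), and Cyp27a1 at 734 CPM (601 to 815) and 387 CPM (336 to 478), a log2 change of -0.88 ± 0.13 (adjusted p = 3.60e-06). Cyp7a1, the rate-limiting enzyme of the classical pathway, did not pass (log2 change -0.99 ± 0.54, adjusted p = 0.166). The uptake carrier Slco1a1 fell by 1.87 ± 0.36 (adjusted p = 0.000156). The 2 rises were those of the efflux carriers Abcc4 (1.15 ± 0.37, adjusted p = 0.0166) and Slc51b (2.44 ± 0.72, 0.00977), and the call of Abcc4 was lost without CD-LFD 5.

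Cytochromes P450 of families 1 to 3 held 16 falls and 6 rises among 35 genes (median -0.34). Cyp2b10 and Cyp2b9, close paralogs of the phenobarbital-inducible family, went opposite ways. Cyp2b10 went from 2.99 CPM (1.71 to 12.8) to 0.0517 CPM (0 to 0.279), a log2 change of -5.76 ± 0.64 (adjusted p = 6.54e-09). Cyp2b9, the form found mainly in female liver, went from 0.207 CPM (0 to 1.22) to 19 CPM (7.32 to 52.4), a log2 change of 6.29 ± 0.71 (adjusted p = 1.00e-08). The 2 share sequence, so reads may have been split between them, although the opposite directions hold in each of the 6 libraries per group. Conjugating enzymes were lower in 10 of 23 and higher in 2, Sult1e1 and Sult1c2, with 6 lower in the 12-library fit or without controls 2 and 4. The sulfate donor synthase Papss2 fell from 217 CPM (103 to 281) to 70.8 CPM (55.2 to 89.9), a log2 change of -1.48 ± 0.19 (adjusted p = 2.71e-07). Among 31 genes of glutathione metabolism and NRF2, the transcription factor of the antioxidant response, 11 were higher and 4 lower. Gsta1 rose from 2.58 CPM (1.79 to 7.82) to 32.5 CPM (14 to 54.1), a log2 change of 3.33 ± 0.53 (adjusted p = 8.57e-06). Gstm3 rose from 82.3 CPM (63.5 to 97.5) to 342 CPM (273 to 423), a log2 change of 2.06 ± 0.28 (adjusted p = 4.12e-07). These are glutathione transferases. The classical target Nqo1 went from 5.0 CPM (3.69 to 7.30) to 11.5 CPM (6.98 to 14.5), a log2 change of 1.11 ± 0.27 (adjusted p = 0.00169). Gstp1, a glutathione transferase more abundant in male liver, fell from 2729 CPM (1656 to 3909.9) to 854 CPM (598 to 1068), a log2 change of -1.77 ± 0.18 (adjusted p = 8.81e-10). Slc7a11, the cystine carrier, had no count in any control library and 73 over the 6 CD-LFD libraries. Its highest CD-LFD level, 0.866 CPM, is under the floor that 3 counts set in the smallest control library, so no fold is given.

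Genes with sex-biased levels in mouse liver, a bias kept up by pulsatile growth hormone, were lower on the male side. Of 24 male-biased genes 16 were lower and the others not called (median -1.16; 14 lower in the 12-library fit, 15 without controls 5 and 6), and of 17 tested Mups 14 were lower (median -2.37; 12 of 16 in the 12-library fit). The steroid dehydrogenase Hsd3b5 went from 252 CPM (169 to 403) to 37.1 CPM (18.1 to 136), a log2 change of -2.34 ± 0.52 (adjusted p = 0.000786). Serpina1e, an alpha-1-antitrypsin copy with near-identical neighbours, went from 9137 CPM (5959 to 13512) to 745 CPM (339.6 to 2777), a log2 change of -2.93 ± 0.36 (adjusted p = 6.10e-08). Female-biased genes were higher in 5 of 18 and lower in 2 (median 0.03). Besides Cyp2b9 these were led by the neurotrophin receptor Ntrk2 and the carrier Slc22a27. Ntrk2 was at 2.18 CPM (1.87 to 10.3) and 54.9 CPM (36.0 to 84.1), a log2 change of 3.95 ± 0.55 (adjusted p = 8.99e-07), and Slc22a27 at 0.462 CPM (0 to 0.978) and 7.62 CPM (4.71 to 18.5), a log2 change of 4.13 ± 0.53 (adjusted p = 1.63e-07). The 2 female-biased falls became 1 without control 2 or 4 or CD-LFD 2, 3, 5 or 6. Of the sex-chromosome markers, Y-linked Ddx3y and Eif2s3y fell without overlap. Ddx3y went from 78.4 CPM (70.4 to 83.0) to 49.2 CPM (42.8 to 55.4), a log2 change of -0.66 ± 0.12 (adjusted p = 0.000102), and Eif2s3y fell by 0.52 ± 0.13 (adjusted p = 0.00169). Uty (log2 change -0.14 ± 0.13, adjusted p = 0.461) and Kdm5d (log2 change -0.16 ± 0.12, adjusted p = 0.323), also on the Y, did not pass.

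Several stress-induced genes rose. Of 28 genes of the unfolded protein and integrated stress responses 9 were higher and 1 lower (median 0.33; 14 and none with scaling by total counts), and the rises were those of Fgf21, Gdf15, Psat1, Chac1, Atf3, Trib3, Ddit3, Manf and Aldh18a1. Several of these are known targets of ATF4, the transcription factor of the integrated stress response. Gdf15, a circulating stress hormone, went from 7.47 CPM (5.79 to 17.6) to 71.1 CPM (26.1 to 131), a log2 change of 2.95 ± 0.39 (adjusted p = 2.58e-07). Chac1, which degrades glutathione, went from 1.61 CPM (0 to 3.58) to 17.9 CPM (4.51 to 26.8), a log2 change of 3.12 ± 0.51 (adjusted p = 1.52e-05). Psat1, of serine synthesis, went from 0.489 CPM (0 to 0.615) to 4.33 CPM (2.79 to 6.68), a log2 change of 3.48 ± 0.53 (adjusted p = 4.03e-06). Atf3 went from 3.91 CPM (2.48 to 6.39) to 16.4 CPM (9.69 to 42.0), a log2 change of 2.25 ± 0.38 (adjusted p = 2.65e-05). The pseudokinase Trib3 went from 5.57 CPM (3.65 to 9.36) to 36.9 CPM (18.3 to 60.5), a log2 change of 2.55 ± 0.51 (adjusted p = 0.000208), and Ddit3, which encodes CHOP, rose by 1.51 ± 0.31 (adjusted p = 0.000275). In contrast Hspa5, the main chaperone of the endoplasmic reticulum, was at 1046 CPM (431 to 1398) and 1079.8 CPM (703 to 1326), a log2 change of -0.01 ± 0.28 (adjusted p = 0.982). Atf4 itself did not pass (log2 change 0.36 ± 0.17, adjusted p = 0.109).

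The promoters of 3 of these genes are shown because the same 8 letters recur in them. ATF4 with a C/EBP partner binds a composite element, searched here as TGATGNAA (or TTNCATCA on the other strand) in the 250 bases before each start site. It was found in 6 of the 26 genes of the list with a RefSeq promoter (23.1%) and in 3.91% of 27025 genes, in 3 of 8 genes called higher and in 3 of 17 not called. Of the last, Herpud1 and Vldlr hold the same 8 letters as the 3 genes shown. The stretches are printed 5′ to 3′ along the gene from RefSeq on GRCm38.p6, with the match in capitals.
Fgf21 (chr7:45615592-45615659, minus strand, match 139 bases before the start): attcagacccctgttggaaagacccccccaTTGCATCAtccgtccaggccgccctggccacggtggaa
Chac1 (chr2:119351019-119351086, plus strand, match 193 bases before the start): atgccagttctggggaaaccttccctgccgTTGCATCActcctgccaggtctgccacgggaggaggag
Atf3 (chr1:191183406-191183473, minus strand, match 110 bases before the start): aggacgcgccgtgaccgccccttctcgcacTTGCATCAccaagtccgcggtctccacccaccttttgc
A match describes letters and no measured binding. For sterol genes the element searched, TCACNCCAC or its reverse GTGGNGTGA, was in 1 of 17 promoters of the cholesterol list (5.88%) against 1.22% of all genes, and in none of the 13 genes called lower.

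Acute phase and complement genes, most of them secreted by hepatocytes, were counted separately, and no test compared the lists. Of 25 acute phase genes 8 were higher and 2 lower (median 0.42), with 5 higher and no call lower without control 1, and 4 lower without CD-LFD 3. With scaling by total counts 14 were higher and none lower. Besides Lcn2, Orm2 rose from 8.09 CPM (2.15 to 18.7) to 128 CPM (69.5 to 179.9), a log2 change of 3.63 ± 0.74 (adjusted p = 0.000275). Orm3 rose from 2.10 CPM (0.977 to 4.11) to 21.2 CPM (9.25 to 34.8), a log2 change of 3.30 ± 0.56 (adjusted p = 2.38e-05). Both are orosomucoid copies that share sequence. Saa1, the serum amyloid protein, was higher in every CD-LFD library, at 83.5 CPM (62.2 to 111) against 21.2 CPM (12.3 to 43.7), a log2 change of 1.83 ± 0.65 (adjusted p = 0.0325), but lost its call without control 1, 2, 3 or 5 or CD-LFD 1. The metallothionein Mt1 did not pass (log2 change 1.33 ± 0.63, adjusted p = 0.114). Complement and coagulation genes were lower in 13 of 31 and higher in 2 (median -0.42), led by the mannose-binding lectin Mbl2, from 348 CPM (180.4 to 565) to 68.6 CPM (45.8 to 85.0), a log2 change of -2.42 ± 0.23 (adjusted p = 1.08e-10). With scaling by total counts 6 complement and coagulation genes were lower and 4 higher, and in the 12-library fit 8 were lower and 2 higher. Clotting factor F7 fell by 1.09 ± 0.16 (adjusted p = 1.76e-06). The 2 rises, C1qa and C1qb, are made by macrophages, and 1 of them lost its call without control 2 and both without CD-LFD 2. Neither was called without controls 2 and 4 or with clock phase as a covariate.

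Markers of liver macrophages split by kind. Of 16 markers of lipid-associated macrophages, the TREM2-positive cells of fatty and scarred liver, 13 were higher and 1 lower (median 2.19), and 12 of these rose without overlap. The list's summed level was 346 to 571 CPM in controls and 698 to 1095 CPM on CD-LFD. Trem2, the lipid-sensing receptor that names these cells, went from 0.617 CPM (0.456 to 1.54) to 14.4 CPM (10.02 to 20.6), a log2 change of 4.31 ± 0.34 (adjusted p = 1.38e-12). The integrin Itgax went from 1.01 CPM (0 to 2.69) to 11.5 CPM (8.24 to 18.4), a log2 change of 3.4 ± 0.37 (adjusted p = 3.29e-09), and the lectin Lgals3 from 3.47 CPM (2.72 to 6.11) to 40.8 CPM (27.7 to 63.2), a log2 change of 3.53 ± 0.28 (adjusted p = 6.87e-13). Spp1, osteopontin, which bile duct cells also make, went from 39.5 CPM (27.8 to 50.8) to 173 CPM (98.4 to 293), a log2 change of 2.20 ± 0.33 (adjusted p = 3.66e-06). The fatty acid binding protein Fabp5 went the other way and fell in every CD-LFD library, from 50.2 CPM (32.0 to 87.9) to 13.5 CPM (9.69 to 21.6), a log2 change of -1.97 ± 0.34 (adjusted p = 2.65e-05). Genes of resident Kupffer cells were lower in 4 of 13, the others not being called (median -0.52), their summed level being 361 to 530 CPM in controls and 217 to 431 CPM on CD-LFD. Timd4, a receptor for dying cells on long-lived Kupffer cells, fell beside Cd163, from 3.91 CPM (1.23 to 10.04) to 0.300 CPM (0 to 0.698), a log2 change of -3.74 ± 0.54 (adjusted p = 1.36e-06). The scavenger receptor Marco went from 7.29 CPM (4.94 to 34.7) to 1.16 CPM (0.247 to 3.63), a log2 change of -2.83 ± 0.62 (adjusted p = 0.000697). Clec4f, the lectin that defines mouse Kupffer cells, was lower in every CD-LFD library, at 48.6 CPM (13.4 to 58.0) against 74.9 CPM (59.1 to 113), without passing the test (adjusted p = 0.107).

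**Figure D5:**
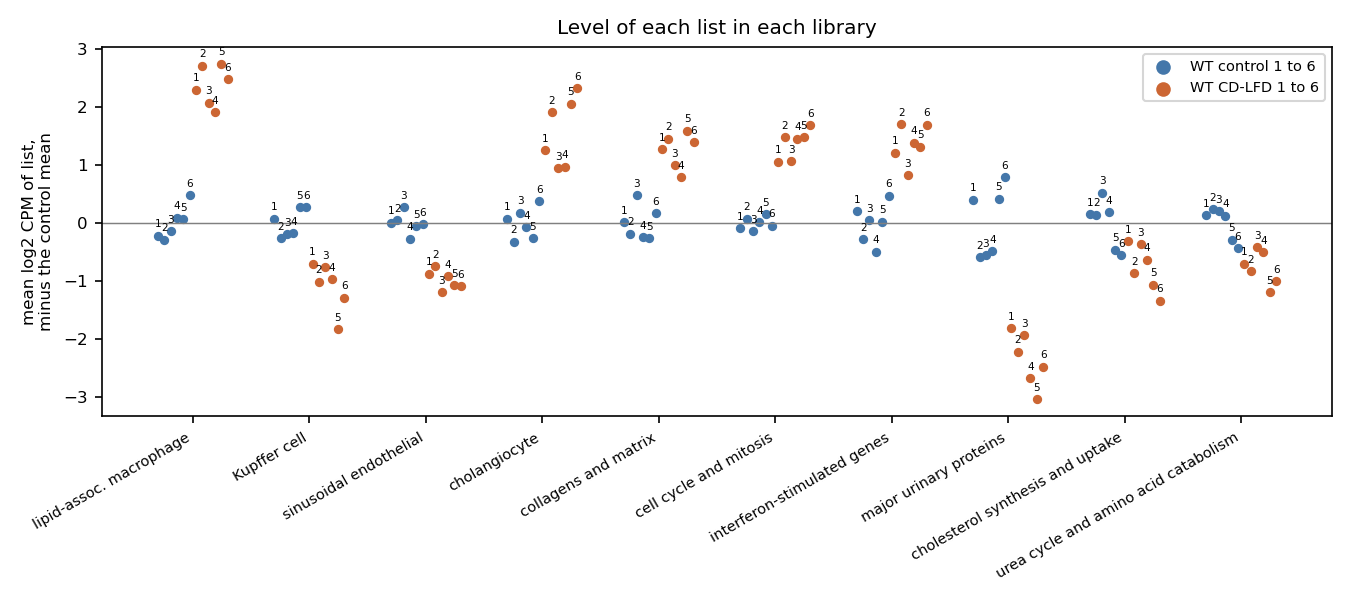
Each point is 1 library, numbered by replicate, and gives the mean log2 CPM over the tested genes of a list minus the mean of the 6 controls. Lipid-associated macrophage, cholangiocyte, matrix, cell cycle and interferon lists lie above the controls in all 6 CD-LFD libraries and Kupffer, sinusoidal endothelial and major urinary protein lists below, while for the sterol and urea lists controls 5 and 6 lie towards the CD-LFD libraries.

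Other cells of the sinusoid and portal tract moved too. Sinusoidal endothelial markers were lower in 11 of 14, and in 9 of these every CD-LFD library lay below every control (median -1.06; 10 lower in the 12-library fit). Kdr, the VEGF receptor of endothelium, went from 43.4 CPM (32.0 to 49.9) to 10.7 CPM (7.17 to 13.4), a log2 change of -1.97 ± 0.22 (adjusted p = 1.07e-08). The endonuclease Dnase1l3 went from 31.6 CPM (22.4 to 49.7) to 9.15 CPM (4.66 to 12.8), a log2 change of -1.93 ± 0.29 (adjusted p = 4.03e-06). Stab2, a scavenger receptor of the same cells, did not pass, at 54.5 CPM (39.3 to 84.6) and 64.5 CPM (62.8 to 69.6), a log2 change of 0.14 ± 0.20 (adjusted p = 0.653). Markers of other endothelium were called once each way among 9. Cd34, of capillaries, rose from 0.589 CPM (0.244 to 1.54) to 2.91 CPM (1.67 to 4.82), a log2 change of 1.80 ± 0.49 (adjusted p = 0.00523), and Wnt2, of the central vein side, fell by 1.62 ± 0.44 on the log2 scale (adjusted p = 0.00519). The rises of this list numbered 2 without control 5, control 6 or CD-LFD 3, and the falls 2 without control 2 or 3. Cholangiocyte markers were higher in 9 of 13 (median 1.71; 5 of 7 in the 12-library fit, 12 without controls 5 and 6, and 6 without these and CD-LFD 5 and 6), with a summed level of 64.5 to 121 CPM in controls and 161 to 416 CPM on CD-LFD. Epcam, an adhesion molecule of biliary and progenitor cells, went from 1.66 CPM (0.733 to 2.77) to 8.08 CPM (4.35 to 12.7), a log2 change of 2.20 ± 0.54 (adjusted p = 0.00201). The transcription factor Ehf went from 0.823 CPM (0.276 to 0.978) to 2.83 CPM (1.40 to 5.99), a log2 change of 2.28 ± 0.56 (adjusted p = 0.00209), while Sox9 did not pass (log2 change 0.27 ± 0.24, adjusted p = 0.432).

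Many matrix genes were called. Of 32 genes of collagens and matrix remodelling 17 were higher and the others not called (median 0.88; 17 of 29 in the 12-library fit, and 18 with 2 lower without controls 5 and 6, 26 with scaling by total counts). The summed level of the list, which its most abundant members set, overlapped between groups, at 1651 to 4104 CPM in controls and 2056 to 3357 CPM on CD-LFD. Col1a1, the main fibrillar collagen of scars, went from 7.52 CPM (2.74 to 13.6) to 51.1 CPM (31.7 to 79.4), a log2 change of 2.67 ± 0.34 (adjusted p = 1.04e-07). Col3a1 went from 27.3 CPM (22.2 to 39.8) to 84.8 CPM (52.1 to 124), a log2 change of 1.57 ± 0.28 (adjusted p = 5.25e-05). Neither gene showed overlap of the groups. Timp1, the inhibitor of matrix proteases, had no count in any control library and 242 on CD-LFD, at 2.44 CPM (1.34 to 5.32). The lowest of these lies under the 1.37 CPM that 3 counts would make in the smallest control library, so no fold is given. Stellate cell markers were higher in 4 of 13 and lower in 1 (median -0.30), among them Pdgfrb, the growth factor receptor of stellate cells, at 7.71 CPM (3.65 to 12.9) and 19.7 CPM (15.4 to 31.5), a log2 change of 1.32 ± 0.26 (adjusted p = 0.000223). The contractile protein Acta2, made by activated stellate cells and by vessel muscle, rose by 1.34 ± 0.39 (adjusted p = 0.00867), with 0.0565 in the 12-library fit. The rises numbered 2 in the 12-library fit and 2 without controls 2 and 4. The 1 fall, Ecm1, became 2 or 3 without control 2, 5 or 6 or CD-LFD 2.

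Chemokine genes and several leukocyte marker lists held many rises. Of 29 chemokines, cytokines and receptors 18 were higher and 2 lower (median 2.03), with 10 and 1 of 19 in the 12-library fit. Their summed level overlapped, at 292 to 511 CPM in controls and 374 to 481 CPM on CD-LFD. Ccl2, which recruits monocytes, went from 0.536 CPM (0.244 to 2.20) to 5.37 CPM (2.72 to 11.3), a log2 change of 2.91 ± 0.51 (adjusted p = 3.49e-05), and its receptor Ccr2 from 1.62 CPM (0.276 to 2.69) to 5.53 CPM (3.77 to 9.86), a log2 change of 2.21 ± 0.39 (adjusted p = 4.86e-05). The fractalkine receptor Cx3cr1 went from 0.393 CPM (0 to 1.71) to 11.7 CPM (6.81 to 21.5), a log2 change of 4.57 ± 0.48 (adjusted p = 1.47e-09). Tnf, the early cytokine of inflammation, went from 0.0690 CPM (0 to 0.978) to 1.80 CPM (1.08 to 2.90), a log2 change of 2.91 ± 0.55 (adjusted p = 0.000114). Its lowest CD-LFD value lies under the 1.37 CPM that 3 counts would make in the smallest control library, so the size of this change is uncertain. Cxcl12, a chemokine of resident stroma, fell from 322 CPM (162 to 397) to 183 CPM (148 to 246), a log2 change of -0.70 ± 0.17 (adjusted p = 0.0021). MHC class II genes, of antigen-presenting cells, were higher in 9 of 11 (median 1.64). Cd74, the invariant chain, went from 53.2 CPM (32.5 to 58.9) to 133 CPM (103 to 219.7), a log2 change of 1.5 ± 0.24 (adjusted p = 1.22e-05). H2-Eb1 went from 18.8 CPM (13.2 to 27.4) to 76.4 CPM (59.3 to 114), a log2 change of 2.01 ± 0.26 (adjusted p = 1.38e-07). Monocyte and neutrophil markers were higher in 4 of 9, dendritic cell markers in 7 of 10, and T and NK cell markers in 10 of 15, while of 11 B and plasma cell markers 4 were called higher without controls 5 and 6, 2 without control 6, 1 without CD-LFD 3 and no gene in the fit to all libraries on the TMM scale (1 with scaling by total counts, and 1 lower in the 12-library fit). Cd8a, of cytotoxic T cells, went from 0.366 CPM (0 to 0.615) to 1.84 CPM (0.668 to 7.86), a log2 change of 3.30 ± 0.73 (adjusted p = 0.000742). Cd4 fell by 1.5 ± 0.45 (adjusted p = 0.0117). T cell counts were low, and the 12-library fit tested 1 of these 15 genes and 4 of the 10 dendritic markers without calling any. The T and NK rises numbered 6 without control 1 and 5 without controls 2 and 4, and the dendritic rises 4 without control 1 or CD-LFD 5. The 1 dendritic marker that fell, Zbtb46, lost its call without control 5, control 6, CD-LFD 2 or CD-LFD 3.

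Interferon-stimulated genes rose in 22 of 31 (median 1.32), with 22 in the 12-library fit and 27 without controls 5 and 6. Ifi27l2a went from 2.78 CPM (0.851 to 4.64) to 14.7 CPM (7.0 to 21.3), a log2 change of 2.57 ± 0.37 (adjusted p = 1.85e-06). Mx1, an antiviral GTPase, rose by 2.53 ± 0.40 (adjusted p = 8.40e-06). Oas1a, an antiviral nucleotide synthetase, went from 2.08 CPM (1.52 to 3.20) to 10.1 CPM (5.55 to 14.1), a log2 change of 2.21 ± 0.33 (adjusted p = 3.75e-06), and its relative Oas3 from 0.350 CPM (0 to 0.966) to 2.43 CPM (2.14 to 3.08), a log2 change of 2.28 ± 0.45 (adjusted p = 0.000203). The ubiquitin-like Isg15 went from 5.90 CPM (4.15 to 17.3) to 32.9 CPM (12.3 to 53.5), a log2 change of 1.94 ± 0.36 (adjusted p = 8.91e-05). The interferon-stimulated response element, searched as GAAANNGAAA or TTTCNNTTTC, was in 12 of 22 promoters of the list (54.5%) against 3.46% of all 27025 genes, in 8 of 15 genes called higher and in 4 of 7 not called. Stretches of 3 of them are printed to show how the element can stand alone or be repeated in overlapping copies, again from RefSeq on GRCm38.p6 with the matches in capitals.
Oas3 (chr5:120777695-120777764, minus strand, 1 match): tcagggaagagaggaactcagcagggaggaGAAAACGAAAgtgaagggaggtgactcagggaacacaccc
Oas1a (chr5:120907526-120907575, minus strand, 2 matches): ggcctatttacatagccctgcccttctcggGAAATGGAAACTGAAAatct
Isg15 (chr4:156200845-156200926, minus strand, 3 matches): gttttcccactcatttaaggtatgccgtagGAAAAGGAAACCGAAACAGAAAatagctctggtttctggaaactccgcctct
These 3 genes were called higher, but copies were also found in genes that were not called, single in Gbp2 and Stat2 and repeated in Bst2 and Ifit3b.

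Rises were also called among proliferation, tumour marker and cell death genes. Of 28 cell cycle genes 18 were higher (median 1.59; 7 of 18 in the 12-library fit, which tested fewer of these weakly expressed genes). Mki67, the marker of dividing cells, went from 2.18 CPM (1.36 to 4.56) to 13.0 CPM (5.02 to 19.2), a log2 change of 2.42 ± 0.33 (adjusted p = 4.10e-07). Cyclin D1 (Ccnd1), which opens the cycle, went from 12.3 CPM (3.18 to 15) to 59.4 CPM (29.4 to 125), a log2 change of 2.48 ± 0.33 (adjusted p = 4.20e-07), with controls 5 and 6 the lowest of their group. Of 24 oncofetal and liver tumour markers 10 were higher and 1 lower (median 1.09). Afp, alpha-fetoprotein of fetal liver, went from 2.57 CPM (0.307 to 4.15) to 6.32 CPM (4.71 to 7.17), a log2 change of 1.24 ± 0.28 (adjusted p = 0.000835). The calcium-binding protein gene S100a11 went from 4.40 CPM (3.59 to 14.7) to 41.0 CPM (18.8 to 79.2), a log2 change of 2.82 ± 0.39 (adjusted p = 6.90e-07). Tff3, a trefoil peptide, fell by 4.06 ± 0.77 (adjusted p = 0.000117), whereas Gpc3 did not pass (0.00 ± 0.47, 0.997). Of 25 genes of necroptosis and pyroptosis 10 were higher and 2 lower (median 0.32; 4 and 1 of 21 in the 12-library fit, 6 and 2 without controls 2 and 4), and 13 were not called. Their summed level was 506 to 643 CPM in controls and 545 to 632 CPM on CD-LFD. Mlkl, the effector whose knockout the study also used, went from 5.38 CPM (2.28 to 6.15) to 11.2 CPM (9.85 to 14.5), a log2 change of 1.20 ± 0.25 (adjusted p = 0.000301). Its activating kinase Ripk3, at 1.26 CPM (0.511 to 4.89) and 2.38 CPM (1.12 to 3.96), did not pass (log2 change 0.31 ± 0.45, adjusted p = 0.652). The nucleic acid sensor Zbp1, itself induced by interferon, went from 4.61 CPM (1.54 to 6.63) to 14.8 CPM (10.5 to 23.2), a log2 change of 1.77 ± 0.31 (adjusted p = 3.17e-05). The inflammasome adaptor Pycard went from 0.855 CPM (0.341 to 1.37) to 3.85 CPM (1.69 to 5.44), a log2 change of 2.12 ± 0.41 (adjusted p = 0.000159).

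Clock genes depended on 2 control libraries and on the scaling. In the full fit 7 of 20 were lower, but without controls 2 and 4 the counts were 1 lower and 3 higher, 2 higher and 2 lower with scaling by total counts, none higher and 2 lower in the 12-library fit, and 2 were lower without control 2 or control 4 alone, 4 without CD-LFD 5 and 3 without CD-LFD 6. Usp2, a clock-controlled deubiquitinase, was at 125 and 131 CPM in controls 4 and 2 and at 4.43 to 9.29 CPM in the other 4, against 7.80 CPM (3.35 to 12.5) on CD-LFD, so that its change went from -2.68 (adjusted p = 0.00109) to 0.03 (0.975) without those 2. Dbp, an output gene of the clock, went from -0.98 (0.148) to 1.65 (0.00152). Since the Arntl to Dbp ratio set those 2 controls apart, leaving them out tends to raise the Dbp change by construction. Time of death is not among the labels, and the part of clock phase in other results was not tested beyond these fits.

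Set beside the high-fat form of the diet in WT mice, CD-LFD livers differed in 3140 genes (21.1%), 2040 higher (13.7%) and 1100 lower (7.4%) on CD-HFD, or 3058 higher and 500 lower with scaling by total counts. With fat, 15 of 16 lipid-associated macrophage markers and 27 of 32 matrix genes were higher than on CD-LFD. On CD-LFD against control 13 and 17 genes of these lists were called higher, so not all of the former had already risen. Gpnmb was at 277 CPM (208 to 665) (log2 difference 2.93 ± 0.29, adjusted p = 8.13e-10), Mmp12 at 183 CPM (141 to 421) (3.76 ± 0.25, adjusted p = 1.62e-14) and Col1a1 differed by 2.0 ± 0.30, adjusted p = 4.09e-06. Lipogenic genes were lower with fat in 16 of 22, among them Fasn (-2.64 ± 0.33, adjusted p = 1.22e-07) and Scd1 (-3.33 ± 0.47, adjusted p = 1.27e-06), as were 16 of 17 Mups. Several rises of the low-fat diet were not higher with fat. Sult1e1 was lower on CD-HFD, at 37.3 CPM (20.3 to 54.2) (-1.95 ± 0.42, adjusted p = 0.000524), as were Glul (-1.11 ± 0.17, adjusted p = 5.49e-06) and Gdf15 (-1.01 ± 0.34, adjusted p = 0.0293), while Fgf21 (-0.93 ± 0.35, adjusted p = 0.0527), Stap1 (-0.40 ± 0.21, adjusted p = 0.177) and Rad51b (0.21 ± 0.23, adjusted p = 0.577) did not pass. Of the 6 CD-HFD libraries 5 had the low Arntl to Dbp ratio of controls 2 and 4 while no CD-LFD library did, so clock phase moves with this contrast. With clock phase as a covariate 2245 genes were called, 1644 higher and 601 lower on CD-HFD, and the values of the genes above are from the fit without it.

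The response to CD-LFD was also set against that of the knockouts, by the interaction of genotype and diet in the same fit. For Ripk3KO, with 6 control and 3 CD-LFD libraries, 4 genes differed (0.0269%), 1 with a higher (0.00673%) and 3 with a lower response (0.0202%), with 1230 at an unadjusted p under 0.05. The count was 26 without Ripk3KO control 1, 16 without control 2 and 1 without CD-LFD 3, and without Ripk3KO CD-LFD 1 or 2 edgeR called no gene (1199 and 1243 at an unadjusted p under 0.05). The named genes among them were Lcn2, whose response was lower by 6.83 on the log2 scale than in WT (adjusted p = 0.0184), and Saa1, lower by 6.33 (0.0184). For MlklKO, with 6 and 4 libraries, 1256 genes differed (8.45%), 649 with a higher (4.37%) and 607 with a lower response (4.08%), or 387 and 1108 with scaling by total counts. The count was 829 without MlklKO control 1 and 1868 without MlklKO control 6. Lcn2 (interaction -6.96 ± 1.17, adjusted p = 0.000271), Saa1 (-5.97 ± 1.04, adjusted p = 0.000379), Mt1 (-6.01 ± 0.99, adjusted p = 0.000255), Ly6d (-5.75 ± 0.87, adjusted p = 6.39e-05) and Sult1e1 (-4.64 ± 0.99, adjusted p = 0.00255) had a lower log2 response than in WT. Lcn2, Ly6d and Sult1e1 were named for their large WT rises, which both interactions subtract, so that choice favours a lower knockout response in them. Within MlklKO, where 37.9% of genes were called, Sult1e1 still rose, by 4.2 ± 0.49, adjusted p = 3.10e-08, whereas Lcn2 fell (-2.0 ± 0.76, adjusted p = 0.0344), as did Saa1 (-4.14 ± 0.83, adjusted p = 0.000176) and Mt1 (-4.68 ± 0.79, adjusted p = 1.95e-05). Of the urea cycle and amino acid list 11 of 30 genes had a different response in MlklKO, among them Asl (1.85 ± 0.31, adjusted p = 0.000311) and Gls2 (1.33 ± 0.27, adjusted p = 0.00166). Macrophage and collagen genes named above did not pass, with Gpnmb at 0.72 ± 0.94, adjusted p = 0.687, Cd163 at 0.80 ± 0.83, adjusted p = 0.598 and Col1a1 at -0.73 ± 0.48, adjusted p = 0.359. All knockout libraries had the low Arntl to Dbp ratio, so in these interactions clock phase and genotype cannot be told apart for the CD-LFD groups.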

How the data were processed

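Liver RNA was extracted with Qiagen columns and made into strand-specific NEBNext libraries, per the labels' protocols. The authors deposited 1 table of whole-number read counts per gene for 44 libraries in 9 groups, with 35249 gene identifiers, of which 34373 matched a symbol and 876 did not. The submitters' processing notes name FastQC, STAR, HTSeq, edgeR, limma and the mouse build GRCm39 (mm39), without versions or roles, and the strand setting of the counting is not given in the sources used here. Genes were kept by filterByExpr (minimum count 10, the 9 groups), which left 14862 genes holding 99.8% of counts. Counts were scaled by TMM and tested with edgeR 4.0.16 (limma 3.58.1, R 4.3.3) by the quasi-likelihood test. All 44 libraries entered the fit, each of the 9 groups having its own mean, without covariates. The p-values were adjusted by the Benjamini-Hochberg method over all genes tested, and ± after a log2 change is its SE. The statistics were tested on simulated data first.

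Named genes were the 12 largest rises and 12 largest falls among called genes with a mean log2 CPM of at least 1, no overlap of the groups and no predicted gene or pseudogene, a fixed set of anchor genes of the 50 lists, and the 3 largest called rises and falls of each list. Further genes were chosen after their values were seen: Alb, Atf3, Atf4, Bst2, Clec4f, Ddit3, Epcam, Gbp2, Herpud1, Hspa5, Ifit3b, Isg15, Itgax, Kdm5d, Lgals3, Manf, Aldh18a1, Oas1a, Oas3, Sox9, Stab2, Stat2, Trib3, Uty, Vldlr, Xist and Zbp1. The members and the lists were chosen with earlier results of these data known. Libraries were grouped by their titles and labels, each counted as 1 replicate, and pairs within a group differed beyond sampling noise (chi-square per degree of freedom 8.33 to 109.8). Depth sets the floor of a count of 0, taken as 3 counts, which covers counting error only. Alternatives were other scaling, no filter, DESeq2 1.42.0, a robust fit, the 12 libraries alone, clock phase as a covariate or restricted to 1 phase, the deep library thinned, a replicate block, and leaving out libraries. Leaving out controls 5 and 6 in the 12-library fit, and leaving out controls 5 and 6 with CD-LFD 5 and 6, were added after seeing the data. Promoter sequences are RefSeq's on GRCm38.p6, another build than that of the counts, so no coordinate of the count table is used. Some genes of the lists entered the counts and are not reported here by name.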

Additional observations from a re-analysis of the deposited data

Results flagged for a closer look

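Among 128 groups of 6 libraries, 2 for each of 64 genes, 5 held a library whose gap to its nearest neighbour exceeded the critical share of the range for 6 samples, 0.625. Chance alone gives about 1 group in 20. These were Fgf21 in CD-LFD 5 (203 CPM, high), Mup15 in control 1 (283 CPM, high), Mlkl in control 5 (2.28 CPM, low), Tnf in control 6 (0.978 CPM, high) and Cd74 in control 2 (32.5 CPM, low).

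The response to CD-LFD differed between genotypes in 14 of the comparisons looked at, 64 genes in each of 2 knockouts, by the interaction in the edgeR fit over all 44 libraries, against 8.45% of all genes for MlklKO and 0.0269% for Ripk3KO. Some of the 64 genes, such as Sult1e1, Ly6d and Lcn2, were named for a large change in WT. The interaction subtracts that same change, so the 14 cannot be read as an excess over these shares. The response in MlklKO minus that in WT, on the log2 scale, was -4.64 for Sult1e1, -5.75 for Ly6d, -6.96 for Lcn2, -1.80 for Cidec, -1.61 for Apoa4, -5.97 for Saa1, -6.01 for Mt1 and -2.04 for Cdkn1a. It was 0.68 for Pemt, 0.94 for Mat1a, 1.14 for Cth and 1.26 for Pck1. In Ripk3KO it was lower for Lcn2 (-6.83) and Saa1 (-6.33), both with an adjusted p of 0.0184. The Ripk3KO calls rest on few libraries: edgeR called no gene for that interaction without Ripk3KO CD-LFD 1 or 2 (1199 and 1243 at an unadjusted p under 0.05), in the fit to the compared groups alone (792) or with a replicate block (791). The knockout libraries share the low Arntl to Dbp ratio, which no WT CD-LFD library has, and with clock phase as a covariate 901 genes were called for MlklKO and 3 for Ripk3KO.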

How the results depend on the processing

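Against the 4117 genes called between CD-LFD and control, 6381 were called without controls 5 and 6, 2691 without controls 2 and 4, 1814 in the fit to the 12 libraries alone, and 3204 (without CD-LFD 6) to 5313 (without control 6) when single libraries were left out. CD-LFD 3, thinned to the depth of the others, gave 4271, and DESeq2 gave 4412. With 1 library out in turn the difference of CD-HFD from CD-LFD ran from 2498 to 3238 genes. The MlklKO interaction ran from 829 to 1868 genes, and was 741 with only the compared groups. The Ripk3KO interaction ran from 0 to 26 genes, and was 32 by DESeq2, 22 with no count filter and 0 by edgeR with only the compared groups (792 at an unadjusted p under 0.05). For both interactions and the CD-HFD comparison the cause of these shifts was not tested. Among named genes, 40 values under an alternative changed sign, 34 of them called in neither fit. The other 6 were called in at least 1: Dbp to 1.14 with clock phase as a covariate and 1.65 without controls 2 and 4, Ciart to 0.70 and 1.06 under the same settings, and Usp2 to 0.031 and Wee1 to 0.52 without controls 2 and 4. The shift of Dbp was favoured by construction, since its own level helped to set the clock phase. Of the other values of named genes under an alternative, 5081 kept their side of the threshold (those 34 included), 279 lost and 23 gained a call, and of the counts within lists 1092 stayed within 1.5 times and 208 did not. Same-numbered CD-LFD and control libraries were compared by their deviations from their own group means, gene by gene. These deviations correlated at 0.0565, 0.0369, 0.488, 0.161, 0.301 and 0.545, and 2 of 6 controls correlated best with their own number. The numbers were therefore not taken to pair animals, although replicates 5 and 6 stand apart in both groups. A replicate block, fitted to the compared groups alone, gave 3013 genes for CD-LFD against control (1814 in that fit without it), 3619 for CD-HFD against CD-LFD (3084), 1825 for the MlklKO interaction (741) and 0 by edgeR for the Ripk3KO interaction (791 at an unadjusted p under 0.05). With 2476268 counts in the smallest library, a count of 0 allows up to 1.37 CPM there, so genes of few counts, such as T cell markers, were measured with little precision.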

Other observations

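Glucose metabolism and hormone axis genes were not described above, and the share called among the former was near that over all genes, 13.7% higher and 14.0% lower. Of 31 genes of glycolysis and gluconeogenesis 4 were higher and 4 lower (median -0.20), which became 8 and 2 with scaling by total counts, 4 and 11 without controls 5 and 6, and 3 and 1 in the 12-library fit. The phosphofructokinase of platelets and growing cells, Pfkp, rose from 2.38 CPM (2.15 to 3.42) in controls to 7.08 CPM (4.51 to 7.67), a log2 change of 1.33 ± 0.25 (adjusted p = 7.55e-05), and the muscle form Pfkm fell from 23.9 CPM (15.2 to 33.4) to 7.83 CPM (4.79 to 15.8), a change of -1.31 ± 0.26 (0.000237). Pck1, which commits carbon to glucose synthesis, did not pass (log2 change -0.57 ± 0.24, adjusted p = 0.0768). The 4 falls became 2 without control 2, 3 or 4 or CD-LFD 5 or 6, and 7 or 8 without control 5 or 6 or CD-LFD 3. Of 24 genes of the growth hormone and insulin-like growth factor axis 5 were lower and 2 higher (median -0.35), or 2 higher and no call lower with scaling by total counts, and 1 higher and 2 lower in the 12-library fit. Ghr, the growth hormone receptor, went from 515 CPM (389.6 to 649) to 323 CPM (221 to 469), a change of -0.65 ± 0.18 (0.00548), while Igf1 fell by 0.60 ± 0.18 (0.0116) with controls 5 and 6 the highest of all, and was not called without them (0.257). The falls became 3 without control 4. The rises, Igfbp1 and Igfbp2, became 1 without control 4, 5 or 6 or CD-LFD 1, 2 or 4, and none without control 1 or 2.

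Of 20 targets of the tumour suppressor p53, 5 were higher and 1 lower (median 0.40; 10 and none with scaling by total counts). Cdkn1a, which encodes the cell cycle inhibitor p21, rose from 6.14 CPM (1.47 to 9.53) to 18.8 CPM (11.8 to 29.2), a change of 1.70 ± 0.39 (0.00104), and the death receptor Tnfrsf10b from 0.329 CPM (0 to 1.19) to 2.55 CPM (1.40 to 4.39), a change of 2.27 ± 0.55 (0.00195). Of 23 transcription factors of hepatocytes 6 were lower and 1 higher (median -0.34), or 3 and 3 with scaling by total counts, 9 and 5 without controls 5 and 6, 2 and 1 in the 12-library fit and 4 and 1 without controls 2 and 4, with Foxa3 at 64.9 CPM (35.7 to 121) and 29.2 CPM (26.2 to 39.9), a change of -1.14 ± 0.26 (0.0011). The single rise, Cebpd, became 3 rises without control 6, and 2 without CD-LFD 4 or 5. Of 20 heat shock chaperones 4 were lower and 1 higher (median -0.39), and 2 to 10 were lower as control 2, 4 or 6 or CD-LFD 1 or 6 was left out, 11 without controls 5 and 6, and none with scaling by total counts. The small chaperone Cryab rose without overlap, from 2.26 CPM (0.922 to 4.11) to 5.88 CPM (4.26 to 8.12), a change of 1.24 ± 0.31 (0.0029).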
